A study of Mus musculus with 6 samples.

Results

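Ribosome biogenesis and MYC target genes were followed through RNA sequencing libraries of spleen B cells, as 35 named genes out of 35275 listed. They were picked out by gene symbol, and each symbol was found once. The libraries come from CD40LΔ5 mice, named for an allele of the CD40 ligand gene, and from wild-type (WT) mice, with 3 libraries in each group. Mice of both groups were of the C57BL/6 strain, were 6 to 8 weeks old and had been injected with SRBC (sheep red blood cells, an antigen that calls on T cell help). Spleens were taken on day 8, and B cells were isolated with a Pan B cell kit. Neither separate animals for each library nor the nature of the CD40LΔ5 allele is given in the labels, so a p-value here measures the spread between libraries, which may be technical.

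A ribosome is built in the nucleolus, where RNA polymerase I transcribes the ribosomal RNA precursor. Small nucleolar ribonucleoproteins (snoRNPs) modify that precursor, and separate sets of factors fold and cut it into the small and the large subunit. MYC, a transcription factor that pairs with MAX and binds the DNA letters CACGTG (an E-box), switches on many of these genes together with genes of polyamine and nucleotide synthesis. In germinal centres, MYC is induced in B cells that receive T cell help through CD40 and their antigen receptor.

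Before any comparison, the deposited sources do not place the libraries in the same groups. The authors' deposited table of group means has columns named MUT and WT. Its MUT column, here the MUT set, is the mean of the libraries labelled CD40LΔ5 replicate 2, WT replicate 1 and WT replicate 2, and its WT column, here the WT set, that of CD40LΔ5 replicates 1 and 3 and WT replicate 3, to within 3.33e-08 FPKM at each gene. The labels and that table place 2 of the 6 libraries alike. Both groupings are therefore given, the labels as the main one, and a library is called by its label throughout. Each library held 24320080 to 27866611 reads on genes, and values are FPKM (fragments per kilobase of gene length, scaled to library size, as deposited). The B cell identity of the libraries was plain in defining markers: the summed level of Cd79a, Cd79b, Ms4a1, Pax5 and Cd22 was 3885 to 4336 FPKM for CD40LΔ5 and 3852 to 4437 FPKM for WT, and none of them was at 0. Cd40lg, the CD40 ligand gene itself, which T cells express, drew 4, 15 and 5 reads in CD40LΔ5 replicates 1, 2 and 3, against 17, 13 and 7 reads in WT replicates 1, 2 and 3. The label groups overlapped, and the MUT set (13 to 17 reads) lay above the WT set (4 to 7 reads). Of 7 T cell markers tested, 6 also had higher means in the MUT set, as did 62% of all genes tested. The median log2 difference of the 7 was 0.32, with Cd28 lower (-0.99 ± 0.47 SE) and Lck nearly level (0.01 ± 0.12 SE). In limma, 3 of them (Cd3d, Cd3g and Cd4) had an unadjusted p under 0.05 (9.39% of all genes tested, higher), with none called. The part of T cells in the Cd40lg reads was not tested. What the allele does to this transcript is not given, so these few reads check neither grouping. A bulk value cannot tell fewer cells of a type from less RNA per cell.

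All 35 genes were expressed well enough for testing, with means from 3.42 FPKM (Wdr12) to 357 FPKM (Npm1) over the 6 libraries, and 30 of them reached 10 FPKM. Their median was 28.7 FPKM, against 11.1 FPKM over the 11252 genes tested, those that averaged 1 FPKM or more. Together they drew 0.389% to 0.431% of all reads on genes in each library. The levels hardly moved between libraries. The highest library exceeded the lowest by a median factor of 1.23, and by less than 1.5 for 34 of the 35, Nme1 being the exception at 1.69. The coefficient of variation over the 6 libraries had a median of 7.63% for the 35 genes, with a range of 2.62% (Nop58) to 18.4% (Nme1). It was 11.3% over all genes tested and 8.74% over the 3045 genes whose mean lay between the quartiles of the 35 (14.4 and 43.1 FPKM). The plot of spread against level shows this.

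**Figure D1:**
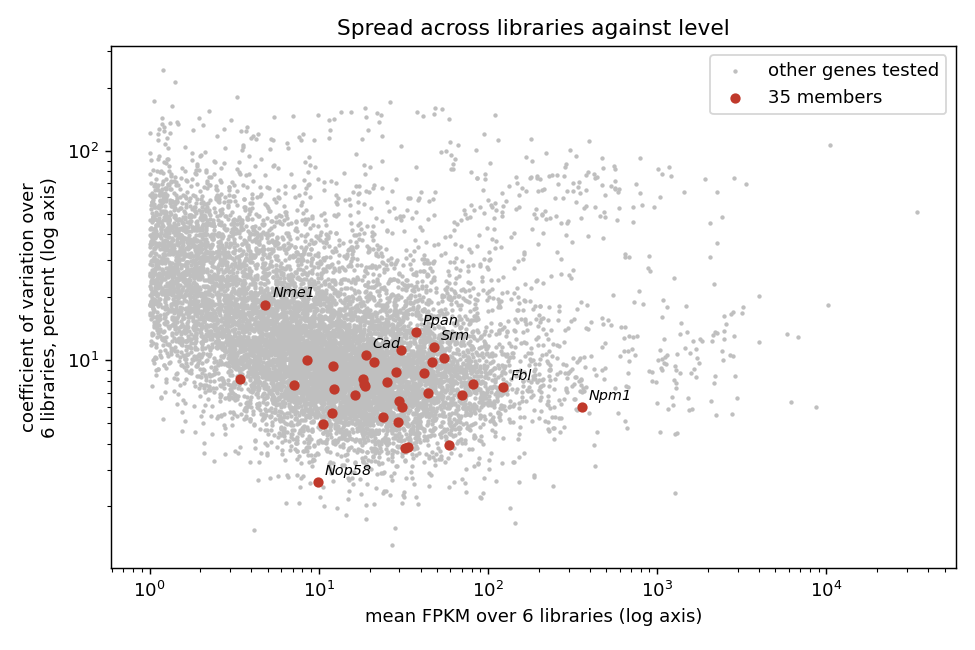
Coefficient of variation over the 6 libraries (percent, log axis) against mean FPKM (log axis) for the 35 genes (red) and all other genes tested (grey). The red points lie between 2.62% and 18.4%, with Nop58 lowest and Nme1 highest.

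The promoters of several of these genes carry the MYC-type E-box. RefSeq promoters of build GRCm38.p6, from 250 bases before to 50 bases after the gene start, were at hand for 29 of the 35 genes. The motif searched was CACGTG, which reads the same on both strands. It stood in the promoter of 8 of the 29 (27.6%), against 12.3% of the 7989 tested genes with a promoter in the table and 7.15% of all 32851 promoters of the same length. The 8 genes were Apex1, Mybbp1a, Nme1, Nop2, Pes1, Tsr1, Utp20 and Wdr43. A match is a description of these letters and not a site shown to be bound. The windows are printed 5′ to 3′ on the strand of the gene, with up to 10 bases to either side and the E-box in capitals, so that the flanks can be compared:
Apex1 chr14:50924915-50924940, plus strand: gctccagaacCACGTGggggcggagc
Apex1 chr14:50924939-50924964, plus strand: gccctcgaatCACGTGaccacaccaa
Apex1 chr14:50924960-50924985, plus strand: accaatcgccCACGTGggaacaggca
Mybbp1a chr11:72441357-72441376, plus strand: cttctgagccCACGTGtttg
Nme1 chr11:93968039-93968064, minus strand: cttgatacgcCACGTGggctcgcctt
Nme1 chr11:93968275-93968300, minus strand: tgcggggaacCACGTGaggccgggga
Nop2 chr6:125131813-125131838, plus strand: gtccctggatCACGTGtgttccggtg
Pes1 chr11:3963967-3963992, plus strand: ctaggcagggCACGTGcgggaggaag
Tsr1 chr11:74898094-74898119, plus strand: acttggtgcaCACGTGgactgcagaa
Utp20 chr10:88826765-88826787, minus strand: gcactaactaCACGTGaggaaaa
Wdr43 chr17:71616222-71616247, plus strand: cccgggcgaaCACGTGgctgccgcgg

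In Apex1, the gene of the DNA repair enzyme APE1, the 3 matches start 24 bases before the gene start, at the start itself (position 1) and at position 22. In the other genes the matches start between position -60 (Nop2) and position 41 (Mybbp1a), and Nme1 has 1 in each of its 2 listed promoters. The whole Apex1 promoter (chr14:50924699-50924998, plus strand, E-boxes in capitals) is shown for its 3 matches, and that of Cad (chr5:31054530-31054829, plus strand) because Cad had the smallest p of the 35 genes over both groupings. The Cad window holds no CACGTG.
Apex1: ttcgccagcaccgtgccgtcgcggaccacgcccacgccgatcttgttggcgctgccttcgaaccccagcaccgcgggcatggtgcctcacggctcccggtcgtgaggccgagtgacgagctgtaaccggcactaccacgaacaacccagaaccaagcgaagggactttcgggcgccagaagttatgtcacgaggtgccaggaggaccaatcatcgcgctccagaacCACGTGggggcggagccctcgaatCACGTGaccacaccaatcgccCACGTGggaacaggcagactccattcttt
Cad: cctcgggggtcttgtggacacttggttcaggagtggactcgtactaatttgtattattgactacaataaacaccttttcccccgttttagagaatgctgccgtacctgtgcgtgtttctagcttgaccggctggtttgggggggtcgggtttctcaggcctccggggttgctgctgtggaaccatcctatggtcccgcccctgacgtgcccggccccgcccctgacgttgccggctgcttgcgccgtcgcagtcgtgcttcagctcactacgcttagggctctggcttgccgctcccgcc

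Grouped by their labels, the CD40LΔ5 and WT libraries showed no detectable difference in the genes of ribosome production and growth. With limma on log2(FPKM + 1), 0 of the 35 passed an adjusted p of 0.05, where 0 of 11252 genes tested did (0%), with 0.999993 as the smallest adjusted value. Without adjustment, p was under 0.05 for 0 of the 35, against 0.915% of all genes higher and 0.32% lower, and limma voom on the reads recovered from the FPKM values called 0 genes, with 1 of the 35 under an unadjusted 0.05. The median log2 difference was -0.01 over the 35 and 0.01 over all genes tested, and single genes ran from -0.24 (Nme1) to 0.20 (Utp20). The Nme1 difference was -0.14 without CD40LΔ5 replicate 2 and -0.15 without WT replicate 2. The 95% interval of the difference lay within 0.5 of 0 on the log2 scale for 34 of the 35, and its lowest bound was -0.60 (Nme1). Means were lower for CD40LΔ5 in 25 of the 35 (44.5% of all genes tested) and higher in 10 (55.5%), a split that became 29 and 6 when libraries were scaled by median-of-ratios size factors. The majority turned to higher for CD40LΔ5 when 1 library was left out: 20 were higher and 15 lower without CD40LΔ5 replicate 3, and 19 higher and 16 lower without WT replicate 1.

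In the sets of the deposited table the same genes were again close to level. 0 of the 35 passed, where limma called 3 of 11252 genes (0.0267%; 0.0178% higher and 0.00889% lower), and the smallest adjusted p of the 35 was 0.352 (Cad). Cad alone of the 35 had an unadjusted p under 0.05, as a lower gene, against 9.39% of all genes higher and 3.61% lower. Voom likewise called 0 of the 35 and had 1 under an unadjusted 0.05. The median log2 difference was -0.0032 over the 35 and 0.05 over all genes, with single genes from -0.24 (Cad) to 0.18 (Ppan). All 35 intervals lay within 0.5 of 0, between -0.45 and 0.49. Means were higher in the MUT set for 17 (62% of all genes tested) and lower for 18 (38%), a split that became 13 and 22 when libraries were scaled by median-of-ratios size factors and 11 and 24 with a gene length trend removed. It moved the other way, to 23 higher and 12 lower, without WT replicate 2, and to 22 and 13 without CD40LΔ5 replicate 1. The plot of differences gives both comparisons.

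**Figure D2:**
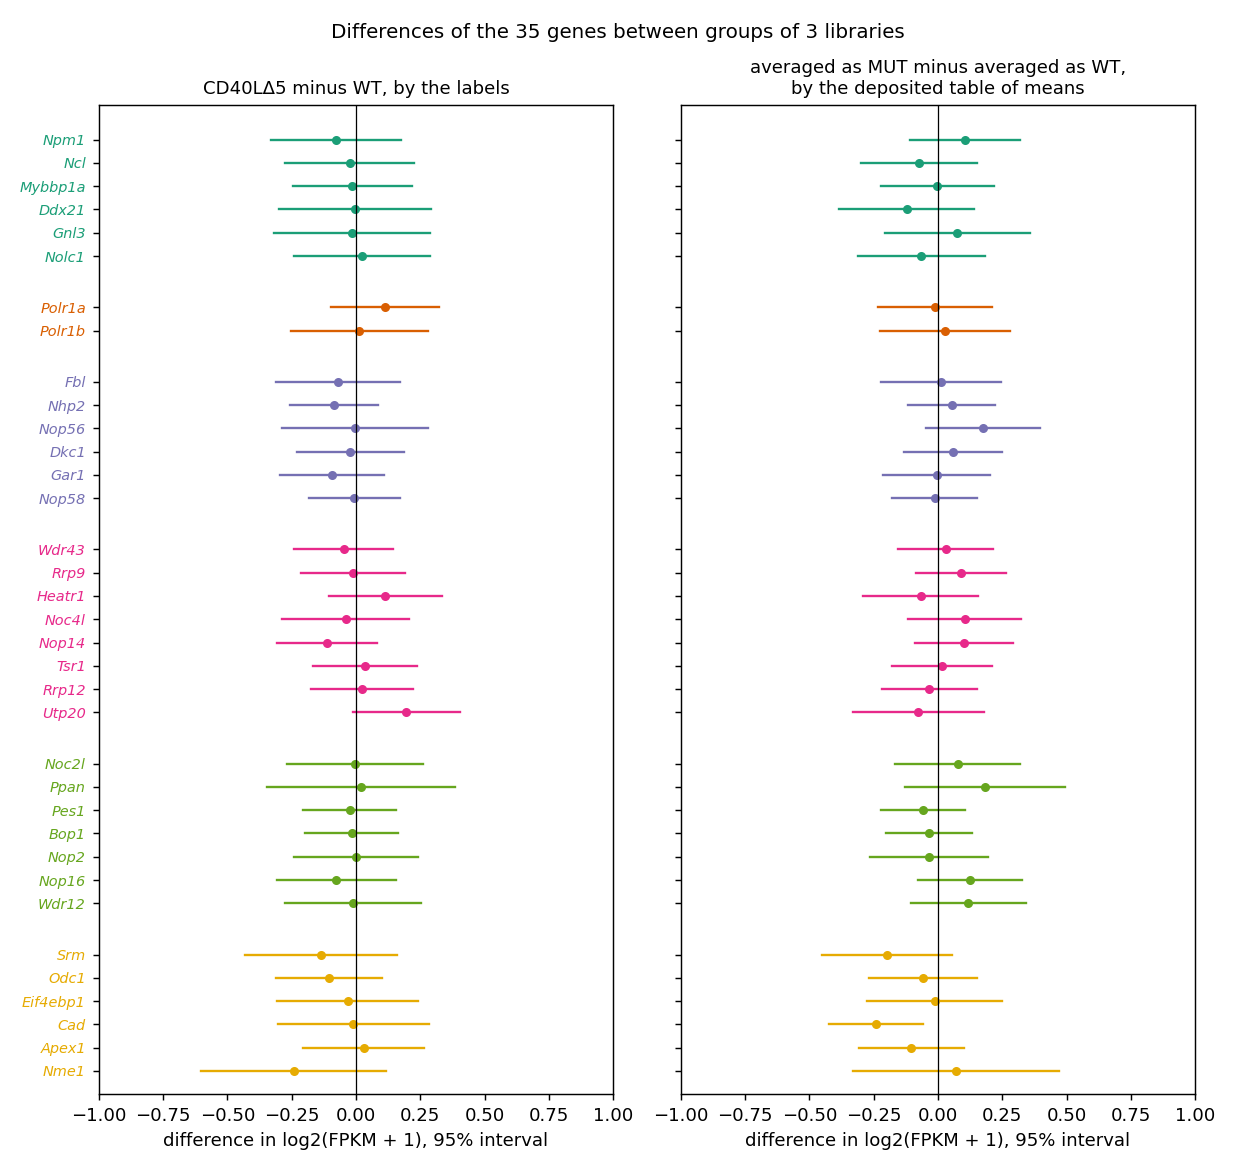
Difference in log2(FPKM + 1) with its 95% interval from limma for each of the 35 genes, coloured by role: left, CD40LΔ5 minus WT by the labels; right, MUT set minus WT set of the deposited table. Every interval but that of Cad on the right spans 0, and all lie between -0.60 and 0.49.

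Among nucleolar scaffold and chaperone genes, the most abundant was Npm1, which encodes nucleophosmin, a histone and ribosome chaperone (ENSMUSG00000057113, chromosome 11, 33152287 to 33163206, minus strand). Npm1 stood at 353, 345 and 344 FPKM in CD40LΔ5 replicates 1, 2 and 3, against 390.5, 376 and 336 FPKM in WT replicates 1, 2 and 3. WT replicates 1 and 2 were the highest and WT replicate 3 was the lowest of all, so the groups overlapped by the labels (log2 difference -0.08 ± 0.11 SE). Ncl, which encodes nucleolin, an RNA-binding protein of the nucleolus, stood at 88.8, 75.4 and 79.7 FPKM in CD40LΔ5 replicates 1, 2 and 3, against 89.4, 75.2 and 83.7 FPKM in WT replicates 1, 2 and 3. The highest values, in CD40LΔ5 replicate 1 and WT replicate 1, were nearly equal, and the lowest were those of both replicates 2. Ncl drew 14999 to 19796 reads per library and Npm1 13985 to 16280, so the lower FPKM of Ncl goes with its listed length of 8202 bases, against 1633 for Npm1. Ddx21, an RNA helicase that couples polymerase I transcription to processing, followed the order of Ncl with 60.1, 49.2 and 54.2 FPKM in CD40LΔ5 replicates 1, 2 and 3, against 60.9, 47.2 and 56.2 FPKM in WT replicates 1, 2 and 3. Its groups overlapped by the labels and by the table (log2 difference -0.12 ± 0.11 SE by the table). Mybbp1a, a nucleolar partner of MYB that acts on ribosomal RNA synthesis, Nolc1, a snoRNP chaperone, and Gnl3 (nucleostemin, a GTPase of the nucleolus) had means of 70.2, 28.6 and 30.6 FPKM over the 6 libraries. Gnl3 was the only one of the 6 with its highest value in WT replicate 2 (36.3 FPKM) and its lowest in WT replicate 1 (26.3 FPKM).

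Both subunits of RNA polymerase I among the 35 differed little. Polr1a, the largest subunit, stood at 13.1, 13.2 and 12.3 FPKM in CD40LΔ5 replicates 1, 2 and 3, against 12.9, 10.9 and 11.7 FPKM in WT replicates 1, 2 and 3. Polr1b, the second largest, stood at 13.7, 12.2 and 10.7 FPKM in CD40LΔ5 replicates 1, 2 and 3, against 13.1, 11.3 and 11.7 FPKM in WT replicates 1, 2 and 3. Each had its highest value in a library labelled CD40LΔ5, but Polr1b also had its lowest there, and neither group stood clear of the other. The log2 difference by the labels was 0.11 ± 0.09 SE for Polr1a and 0.01 ± 0.11 SE for Polr1b.

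The snoRNP genes fall into the box C/D set, which guides ribose methylation, and the box H/ACA set, which guides pseudouridylation. In the first, Fbl, the methyltransferase fibrillarin, stood at 128, 113 and 118 FPKM in CD40LΔ5 replicates 1, 2 and 3, against 139, 119 and 120.1 FPKM in WT replicates 1, 2 and 3. The highest value was that of WT replicate 1 and the lowest that of CD40LΔ5 replicate 2. Nop56, a core protein of the same particle, stood at 48.3, 50.9 and 41.1 FPKM in CD40LΔ5 replicates 1, 2 and 3, against 45.7, 52.5 and 42.4 FPKM in WT replicates 1, 2 and 3. By the table this was 49.7 ± 3.53 FPKM over the MUT set and 43.9 ± 3.85 FPKM over the WT set (SD, n = 3 each), with a log2 difference of 0.18 ± 0.09 SE, and CD40LΔ5 replicate 1, of the WT set, lay above WT replicate 1, of the MUT set. Nop56 overlaps Idh3b on the opposite strand, which averaged 49.2 FPKM, and the library kit does not keep the strand, so reads of the overlap cannot be told apart. Nop58, the partner of Nop56, was the steadiest of all 35 at 10.3, 9.59 and 9.59 FPKM in CD40LΔ5 replicates 1, 2 and 3, against 9.97, 9.82 and 9.81 FPKM in WT replicates 1, 2 and 3. All 6 of its values lie within a factor of 1.07.

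In the H/ACA set, Nhp2 was 1 of only 2 genes whose label groups did not overlap (ENSMUSG00000001056, chromosome 11, 51619735 to 51623714, plus strand). It stood at 58.3, 58.2 and 55.7 FPKM in CD40LΔ5 replicates 1, 2 and 3, against 60.03, 62.6 and 60.2 FPKM in WT replicates 1, 2 and 3. Each CD40LΔ5 library was lower than each WT library, and the group means were 57.4 ± 1.46 FPKM for CD40LΔ5 and 60.9 ± 1.44 FPKM for WT (SD, n = 3 each). The log2 difference was -0.08 ± 0.07 SE with an interval of -0.26 to 0.09, and it did not pass limma (adjusted p = 0.999993). Non-overlap in this direction was met by 1 of the 35 and by 1.32% of all genes tested. Nhp2 overlaps Rmnd5b on the opposite strand, which averaged 26.3 FPKM. Among the 35, 8 overlap on the opposite strand a gene that averaged over 5 FPKM; beside Nop56, Nhp2, Rrp9 and Apex1, these are Dkc1 (with Mpp1, 23.5 FPKM), Mybbp1a (with Spns2, 13.6 FPKM), Bop1 (with Mroh1) and Gnl3 (with Glt8d1). Dkc1 (dyskerin, the pseudouridine synthase) and Gar1 ranged from 29.2 to 34.1 FPKM and from 27.1 to 32.8 FPKM. All 6 snoRNP genes had lower means for CD40LΔ5 by the labels (44.5% of all genes tested), under each scaling, with none called. Their log2 differences ran from -0.09 (Gar1) to only -0.003 (Nop56). Settings that left out libraries were not looked at for these 6 as a group. In the MUT set 4 of the 6 were higher (62% of all genes tested), and 3 of the 6 under the other scalings.

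Factors of the small subunit processome, the large particle that forms on the nascent precursor, numbered 8 and averaged 8.47 to 29.4 FPKM over the 6 libraries. The most abundant was Wdr43, a WD-repeat subunit, at 30.8, 29.01 and 27.1 FPKM in CD40LΔ5 replicates 1, 2 and 3, against 31.2, 29.01 and 29.6 FPKM in WT replicates 1, 2 and 3. CD40LΔ5 replicate 3 was the lowest and the others lay close together. Utp20, a large scaffold protein of the particle, was the other gene whose label groups did not overlap (ENSMUSG00000004356, chromosome 10, 88746607 to 88826814, minus strand), and it had the smallest p of the 35 by the labels. It stood at 9.72, 9.04 and 8.57 FPKM in CD40LΔ5 replicates 1, 2 and 3, against 8.29, 7.32 and 7.87 FPKM in WT replicates 1, 2 and 3. Every CD40LΔ5 value was above every WT value, with means of 9.11 ± 0.575 FPKM for CD40LΔ5 and 7.83 ± 0.484 FPKM for WT (SD, n = 3 each). The log2 difference was 0.20 ± 0.09 SE (interval -0.01 to 0.41; limma adjusted p = 0.999993), and non-overlap in this direction was met by 1 of the 35 and by 2.98% of all genes tested. The difference was 0.07 once a trend with gene length was removed from each library. Its table sets overlapped, with 8.21 ± 0.863 FPKM over the MUT set and 8.72 ± 0.931 FPKM over the WT set (SD, n = 3 each).

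Nop14, another subunit, stood at 16.2, 15.98 and 14.97 FPKM in CD40LΔ5 replicates 1, 2 and 3, against 18.4, 16.8 and 16.2 FPKM in WT replicates 1, 2 and 3. Its highest value was that of WT replicate 1, CD40LΔ5 replicate 3 was the lowest, and the groups overlapped (log2 difference -0.11 ± 0.08 SE by the labels and 0.10 ± 0.08 SE by the table). Rrp9, a WD-repeat protein of the U3 snoRNP, ranged from 21.9 to 25.1 FPKM, and it overlaps Parp3, which averaged 15.4 FPKM on the opposite strand. Heatr1, the mammalian counterpart of yeast Utp10, was higher on average by the labels (log2 difference 0.11 ± 0.09 SE), with WT replicate 2 alone low at 15.8 FPKM. Noc4l, Tsr1 and Rrp12, which act in maturation and export of the small subunit, had log2 differences of -0.04 ± 0.10 SE, 0.04 ± 0.09 SE and 0.02 ± 0.08 SE by the labels. By the labels 4 of the 8 genes were higher and 4 lower. In the MUT set 5 were higher and 3 lower, which turned to 3 and 5 with median-of-ratios size factors, and none was called under either grouping.

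Large subunit assembly was represented by 7 genes. Noc2l, a nucleolar complex protein that escorts pre-ribosomes, was the most abundant at 45.2, 44.2 and 36.3 FPKM in CD40LΔ5 replicates 1, 2 and 3, against 45.3, 39.4 and 40.9 FPKM in WT replicates 1, 2 and 3. WT replicate 1, CD40LΔ5 replicate 1 and CD40LΔ5 replicate 2 were high and nearly equal. Pes1, Bop1 and Wdr12 form the PeBoW complex, which is needed for maturation of the large subunit RNAs. Pes1 and Bop1 were almost as steady as Nop58, at 32.03 to 35.04 FPKM and 30.97 to 34.2 FPKM. Wdr12 was the lowest of all 35 in FPKM, at 3.59, 3.55 and 3.06 FPKM in CD40LΔ5 replicates 1, 2 and 3, against 3.55, 3.69 and 3.08 FPKM in WT replicates 1, 2 and 3. Its listed length of 10012 bases is the longest of the 35, and it drew 850 to 977 reads per library.

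Nop16 was the 1 gene of the 35 whose table sets did not overlap upwards (ENSMUSG00000025869, chromosome 13, 54584185 to 54590090, minus strand). It stood at 19.4, 19.6 and 16.1 FPKM in CD40LΔ5 replicates 1, 2 and 3, against 19.9, 19.5 and 18.6 FPKM in WT replicates 1, 2 and 3. CD40LΔ5 replicate 3 was the lowest, and the 3 of the MUT set were nearly equal to each other. The means were 19.7 ± 0.204 FPKM over the MUT set and 18 ± 1.71 FPKM over the WT set (SD, n = 3 each), with a log2 difference of 0.12 ± 0.09 SE and an interval of -0.08 to 0.33 (limma adjusted p = 0.526). Non-overlap upwards was met by 12.1% of all genes tested. Removal of the gene length trend took the difference to 0.03, and leaving out CD40LΔ5 replicate 3 took it to 0.05. Ppan, a factor of early large subunit assembly, had the largest positive difference by the table and stood at 41.3, 41.4 and 30.4 FPKM in CD40LΔ5 replicates 1, 2 and 3, against 35.05, 42.6 and 33.4 FPKM in WT replicates 1, 2 and 3. CD40LΔ5 replicate 1, of the WT set, was nearly as high as the highest libraries of the MUT set, so the sets overlapped (log2 difference 0.18 ± 0.13 SE). Nop2, an RNA cytosine methyltransferase, was level in both comparisons (0.00 ± 0.10 SE by the labels and -0.04 ± 0.10 SE by the table).

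**Figure D3:**
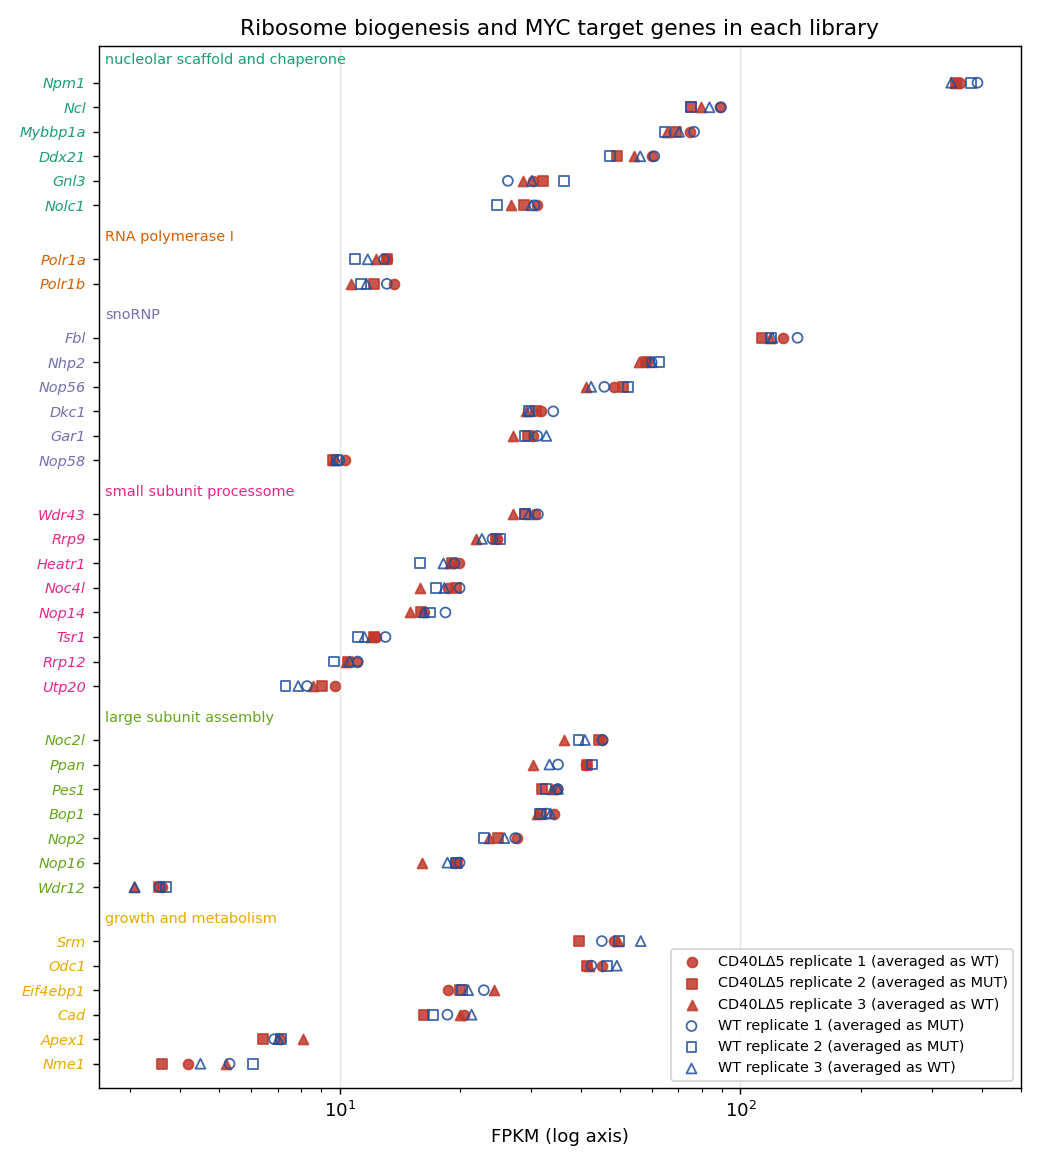
FPKM (log axis) of the 35 genes, by role, in each of the 6 libraries; filled red symbols are labelled CD40LΔ5, open blue ones WT, and the legend gives the set of the deposited table for each. Symbols of a gene lie close together at every level from Wdr12 (3.42 FPKM on average) to Npm1 (357 FPKM), and filled and open symbols mix for all but Nhp2 and Utp20.

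Of the growth and metabolism targets of MYC, Cad encodes the enzyme that starts pyrimidine synthesis (ENSMUSG00000013629, chromosome 5, 31054780 to 31078479, plus strand). It stood at 20.4, 16.2 and 19.9 FPKM in CD40LΔ5 replicates 1, 2 and 3, against 18.6, 17.1 and 21.3 FPKM in WT replicates 1, 2 and 3. By the labels the groups overlapped (-0.01 ± 0.12 SE). By the table the sets did not overlap, with 17.3 ± 1.19 FPKM over the MUT set and 20.6 ± 0.698 FPKM over the WT set (SD, n = 3 each). The log2 difference was -0.24 ± 0.08 SE with an interval of -0.42 to -0.06, and limma did not call it (adjusted p = 0.352). Non-overlap downwards was met by 1 of the 35 and by 4.79% of all genes tested. The difference ranged from -0.29 to -0.20 when each library was left out in turn, and was -0.17 in the 4 libraries other than CD40LΔ5 replicate 2 and WT replicate 3, which labels and table divide the same way under opposite names.

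Proliferation markers moved in the same direction as Cad in these sets. All 12 markers of the list had lower means in the MUT set (38% of all genes tested), with a median log2 difference of -0.75. In limma, 11 of them had an unadjusted p under 0.05 (3.61% of all genes tested, lower), with none called. Their summed level was 81.7 to 155.1 FPKM over the MUT set and 152.1 to 209.5 FPKM over the WT set, and none was at 0. Mki67, a marker of cycling cells, stood at 23.8, 7.32 and 18.2 FPKM in CD40LΔ5 replicates 1, 2 and 3, against 7.59, 14.5 and 21.8 FPKM in WT replicates 1, 2 and 3. Markers of other cells also differed between these sets. All 6 natural killer cell markers (median log2 difference 0.53), all 9 of monocytes and macrophages (0.66) and all 9 erythroid ones (0.59) had higher means in the MUT set. So did 62% of all genes tested. All 9 neutrophil markers tested had lower means (-1.55), as did 38% of all genes tested. None of these markers was called. The part of cycling cells and of these other cells in the Cad values was not tested.

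Srm, spermidine synthase, was the most abundant of the 6 growth genes at 48.4, 39.6 and 49.4 FPKM in CD40LΔ5 replicates 1, 2 and 3, against 45.1, 49.7 and 56.4 FPKM in WT replicates 1, 2 and 3. CD40LΔ5 replicate 2 was lowest and WT replicate 3 highest. By the table the means were 44.8 ± 5.05 FPKM over the MUT set and 51.4 ± 4.35 FPKM over the WT set (SD, n = 3 each), a log2 difference of -0.20 ± 0.11 SE that did not pass (limma adjusted p = 0.449) and that was -0.05 in those 4 libraries. Odc1, ornithine decarboxylase, which supplies the polyamine pathway upstream of Srm, ranged less, with 45.05, 41.3 and 41.8 FPKM in CD40LΔ5 replicates 1, 2 and 3, against 42.4, 46.5 and 49.1 FPKM in WT replicates 1, 2 and 3. Again WT replicate 3 was highest and CD40LΔ5 replicate 2 lowest. Nme1, a nucleoside diphosphate kinase, varied most of the 35, at 4.19, 3.60 and 5.201 FPKM in CD40LΔ5 replicates 1, 2 and 3, against 5.31, 6.06 and 4.49 FPKM in WT replicates 1, 2 and 3. CD40LΔ5 replicate 2 was lowest and WT replicate 2 highest, and the groups overlapped under both groupings (-0.24 ± 0.15 SE by the labels and 0.07 ± 0.17 SE by the table). It rests on 284 to 469 reads per library, and a second gene listed over it on the same strand, Gm20390, is listed at 0 in all libraries. The read counter is not named, so how reads shared by both genes were treated is not known. Eif4ebp1, the translation repressor 4E-BP1 that mTORC1 switches off, and Apex1 were both highest in CD40LΔ5 replicate 3, at 24.2 and 8.08 FPKM. Apex1 drew the fewest reads of the 35, down to 198 in a library, and it overlaps Tmem55b on the opposite strand, which averaged 25.7 FPKM.

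CD40LΔ5 replicate 2 and WT replicate 3 are the libraries that both sources place alike, and with 1 library a group they allow no test. No gene of the 35 differed by 1.5-fold between them, where 9.75% of all genes tested were higher and 4.95% lower in CD40LΔ5 replicate 2 by that much. These shares were not taken at a like level: the median was 28.7 FPKM for the 35 and 11.1 FPKM for all genes tested. With median-of-ratios size factors 1 of the 35 passed (Srm, lower). The median log2 difference was -0.03 over the 35 and 0.10 over all genes tested, and over the 35 it was -0.13 with median-of-ratios size factors. Of the 35, 15 were higher (65.5% of all genes) and 20 lower (34.5%) in CD40LΔ5 replicate 2. Srm was the lowest relative to WT replicate 3 (-0.50) and Ppan the highest (0.30).

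Set side by side with the markers of the immune response, the 35 genes varied little from library to library. Their median deviation from the mean of the 6 libraries ran from -0.08 (CD40LΔ5 replicate 3) to 0.07 (WT replicate 1) on the log2 scale. Over all genes tested the median ran from -0.05 (CD40LΔ5 replicate 3) to 0.05 (CD40LΔ5 replicate 2), so this narrow range was not particular to the 35. The 7 germinal centre markers, such as Bcl6, the transcription factor that germinal centre B cells need, had medians of -0.84 in CD40LΔ5 replicate 2 and -1.56 in WT replicate 1, against 0.11 to 0.84 in the other 4. All 7 of them had lower means in the MUT set (38% of all genes tested), with a median log2 difference of -1.12. In limma, 2 of the 7 had an unadjusted p under 0.05 (3.61% of all genes tested, lower), with none called. Their summed levels were 38.99 to 128 FPKM over the MUT set and 92.8 to 141.5 FPKM over the WT set. The plasma cell markers ran from -0.88 (CD40LΔ5 replicate 2) to 0.63 (WT replicate 3). No test of this contrast between lists was made. WT replicate 1, with the lowest germinal centre markers, held the highest value for 13 of the 35 genes and the lowest for 1. CD40LΔ5 replicate 2, also low in these markers, went the other way, with the highest value for 1 and the lowest for 7. Such counts were not made over all genes tested. WT replicate 1 also held the highest monocyte and macrophage markers, which summed to 284 FPKM against 75.1 to 132.1 FPKM in the other 5. CD40LΔ5 replicate 3 held the lowest value for 15 and the highest for 2. WT replicate 2 held the lowest for 10 and the highest for 7, and WT replicate 3 the lowest for 1 and the highest for 5. CD40LΔ5 replicate 1 held the lowest for 1 and the highest for 7. CD40LΔ5 replicate 3 also held high neutrophil markers, with a summed level of 594 FPKM over 10 genes, against 344 FPKM in WT replicate 3 and 46.0 to 82.7 FPKM in the other 4 libraries. Of these markers Ly6g was at 0 in CD40LΔ5 replicate 2 alone. The part of macrophage or neutrophil RNA in the values of the 35 genes was not tested.

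**Figure D4:**
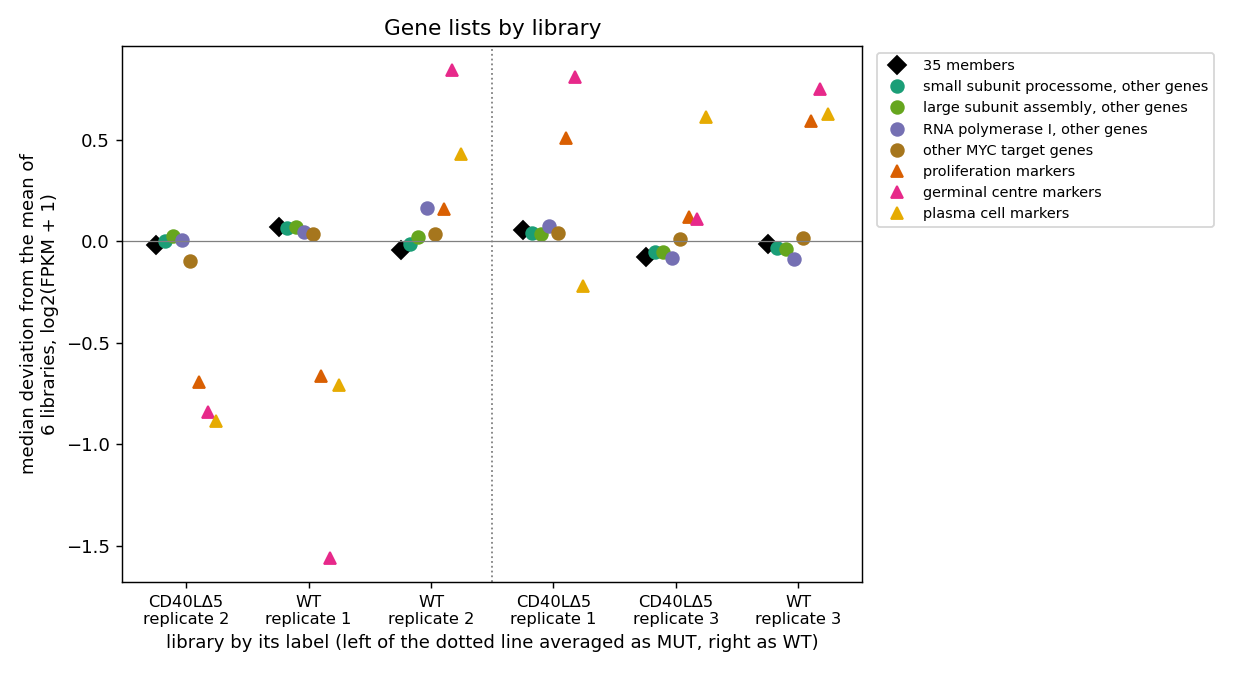
Median deviation from the mean of the 6 libraries, in log2(FPKM + 1), for the 35 genes (black diamonds), other genes of their pathways (circles) and marker lists (triangles) in each library, ordered by the set of the deposited table. The black diamonds stay between -0.08 and 0.07, while germinal centre markers span -1.56 to 0.84. The median over all genes tested, which is not drawn, ran from -0.05 to 0.05.

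Other genes of the same pathways, 113 tested of 115 listed, were looked at alongside. None was called in either comparison, and 0 by the labels had an unadjusted p under 0.05. In the MUT set 5 of the 113 were higher at that level (9.39% of all genes tested) and 1 was lower (3.61%). Of 27 other small subunit factors the median log2 difference was -0.02 by the labels and 0.05 by the table, and of 28 other large subunit factors 0.00 and 0.07. Means were higher for 8 of the 27 and 16 of the 28 by the labels, where 55.5% of all genes tested were higher. In the MUT set they were higher for 19 and 21, where 62% of all genes tested were higher. The other scalings were not run for these lists. Among 13 other genes of RNA polymerase I, 3 were among those 5. These were Taf1d and Taf1a, subunits of its promoter selectivity factor, and Polr1c, a subunit shared with RNA polymerase III. Taf1d stood at 24.2, 28.9 and 22.04 FPKM in CD40LΔ5 replicates 1, 2 and 3, against 25.3, 31.9 and 22.9 FPKM in WT replicates 1, 2 and 3. By the table its means were 28.7 ± 3.32 FPKM over the MUT set and 23.1 ± 1.11 FPKM over the WT set (SD, n = 3 each), with a log2 difference of 0.30 ± 0.10 SE (limma adjusted p = 0.355).

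MYC itself differed little. Myc stood at 33.4, 28.8 and 25.9 FPKM in CD40LΔ5 replicates 1, 2 and 3, against 30.7, 28.9 and 33.3 FPKM in WT replicates 1, 2 and 3. CD40LΔ5 replicate 1 and WT replicate 3 were highest and CD40LΔ5 replicate 3 was lowest, with log2 differences of -0.08 ± 0.11 SE by the labels and -0.06 ± 0.11 SE by the table. Its partner Max ranged from 48.9 to 58.3 FPKM. Mycn and Mycl, the relatives of Myc, lay under the level for testing, at 0.132 to 0.362 and 0.116 to 0.540 FPKM. Mga, a repressor that competes for MAX, had the smallest p of the network by the labels, with 11.9, 13 and 11.3 FPKM in CD40LΔ5 replicates 1, 2 and 3, against 11.2, 9.71 and 9.52 FPKM in WT replicates 1, 2 and 3 (log2 difference 0.23 ± 0.10 SE; limma adjusted p = 0.999993). CD40LΔ5 replicates 1, 2 and 3 all stood above the WT libraries, which held for 2.98% of all genes tested, and the values of CD40LΔ5 replicate 3 and WT replicate 1 were nearly equal. Of the 10 network genes tested, 6 were higher and 4 lower under each grouping.

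Of 27 other MYC target genes, 25 had lower means for CD40LΔ5 by the labels (44.5% of all genes tested) and 18 in the MUT set (38%). The medians were -0.05 and -0.04, with none called. Settings that left out libraries were not looked at for this list. By the table, 2 of the 27 had an unadjusted p under 0.05. Mcm4, a subunit of the replicative helicase, measured 24.4 ± 3.24 FPKM over the MUT set and 31.8 ± 3.31 FPKM over the WT set (SD, n = 3 each; log2 difference -0.37 ± 0.12 SE; limma adjusted p = 0.355). Hspe1, the mitochondrial co-chaperonin, went the other way with 175 ± 10.8 FPKM over the MUT set and 139 ± 21.2 FPKM over the WT set (SD, n = 3 each; limma adjusted p = 0.356). In the polyamine pathway 1 of 8 other genes was higher for CD40LΔ5 by the labels (55.5% of all genes tested) and 7 of 8 in the MUT set (62%). Sat1, the acetyltransferase that starts polyamine breakdown, had the smallest p of all listed pathway genes. It stood at 84.9, 100.2 and 74.4 FPKM in CD40LΔ5 replicates 1, 2 and 3, against 93.9, 99.2 and 73.3 FPKM in WT replicates 1, 2 and 3. The MUT set lay above the WT set with no overlap, which 12.1% of all genes tested did (log2 difference 0.33 ± 0.09 SE; limma adjusted p = 0.343), while the label groups overlapped (-0.04 ± 0.16 SE).

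Genes with and without CACGTG in the promoter window had similar median differences by the labels, but less similar ones by the table. The window ends 50 bases after the gene start, and sites outside it were not looked for. By the labels the 8 genes with CACGTG had a median log2 difference of -0.01 (range -0.24 to 0.20), and the 21 without it -0.01 (range -0.11 to 0.11). By the table the medians were -0.02 with it (range -0.10 to 0.07) and 0.05 without it (range -0.24 to 0.18). These are descriptions, with no test. The coefficient of variation of the 8 ran from 3.87% (Pes1) to 18.4% (Nme1), the highest of the 35. Nop58, the steadiest of the 35 at 2.62%, has no match in the window.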

How the data were processed

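FPKM per gene, 1 column a library, and FPKM means of 2 sets of libraries are the values the authors deposited, with gene lengths. Per the submitters' processing notes, CASAVA 1.8.2, STAR and DESeq2 were used, without stated roles, with the build mm9; counter and annotation are not named. The listed coordinates match GRCm38 (GENCODE M21 has the same start and end for 21 of the 35 genes, and all 35 overlap their entry). Per the labels' protocols, a TruSeq RNA kit took 1 µg of RNA per library; it does not keep the strand. Division by the value of 1 read gave whole reads for 100% of values (tolerance 0.01).

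Groups came from the labels and, separately, from the table of means. limma 3.58.1 in R 4.3.3 (eBayes with trend) was fitted on log2(FPKM + 1) over the 11252 genes that averaged 1 FPKM or more, with Benjamini-Hochberg adjustment; log2 differences on this scale understate changes of low genes. The procedure was tested on simulated data. Alternatives were other pseudocounts, filters and scalings, no trend, voom on recovered reads, removal of a gene length trend (loess, span 0.3), a replicate block and leaving out libraries. Members and lists were chosen with earlier results of these data known. Any of the 35 genes could be named; in each role, values per library are given for the most abundant and those of smallest p. Of the other lists, up to 4 genes of smallest p per pathway list, Myc, Mki67 and abundant markers could be named; Bcl6, Mycn, Mycl and a few ranges were chosen after their values were seen. Of the marker lists, T cell (8 genes, summed level 42.3 to 51.3 FPKM), natural killer cell (6 genes, 21.5 to 55.7 FPKM), monocyte and macrophage (9 genes, 75.1 to 284 FPKM) and erythroid genes (9 genes, 315 to 1189 FPKM) were low beside the 5 B cell genes; 1 marker each of the B cell and germinal centre lists is not reported here.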

Additional observations from a re-analysis of the deposited data

How the results depend on the processing

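None of the 35 genes was called under any of the 17 alternatives by the labels or the 16 by the table; their smallest adjusted p was 0.918 and 0.297. The largest difference of a single gene was 0.36 by the labels and 0.31 by the table on the log2 scale. Of 1151 values of single genes under alternatives, 1134 moved by less than 1 SD between replicates. The sign of up to 12 of the 35 turned in a setting that left out libraries, and of up to 8 where all 6 libraries were kept. Under both groupings the median difference of the 35 stayed between -0.06 and 0.03: leaving out each library gave -0.06 to 0.01 by the labels and -0.03 to 0.03 by the table. The count over all genes by the table, 3, was 5 with a pseudocount of 0.1, 1 with no filter, 0 with a minimum of 5 FPKM, 1 with voom, and 1 to 16 when each library was left out (1 without CD40LΔ5 replicate 2, 13 without WT replicate 2 and 16 without CD40LΔ5 replicate 1). By the labels it was 0, and 2 in the 4 libraries other than CD40LΔ5 replicate 2 and WT replicate 3; the causes were not tested. Between CD40LΔ5 replicate 2 and WT replicate 3, 1 of the 35 (Srm, lower) passed 1.5-fold with median-of-ratios size factors, and 2 (Cad and Srm, lower) passed the lower fold threshold tried in its place. The replicate numbers of the labels did not pair the libraries (correlation of deviations of same-numbered libraries -0.38, 0.06 and 0.38), and with a replicate block 0 of the 35 and 0 of all genes were called, with the median difference at -0.01. No paired analysis was possible for the table's sets, whose numbers do not match across sets. Depth of 24320080 to 27866611 reads limits Apex1 and Nme1 most among the 35.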
